A study of Homo sapiens with 8 samples.

Results

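The response described is that of NS-SV-AC cells to tumour necrosis factor (TNF) after 6 and 12 h, set against bovine serum albumin (BSA), the control protein, at the same times. NS-SV-AC is a human cell line, immortalised and labelled as acinar, the cell type of salivary glands that secretes saliva. Cells were given TNF at 20 ng/ml for 6 h or 12 h, or BSA with no TNF for 6 h or 12 h, and 1 Affymetrix array was measured for each of these 4 conditions, out of 8 arrays in the series. The arrays were chosen by their titles, and all 18239 genes with a probe set of 1 gene symbol were examined. The labels do not say whether arrays came from separate cultures, and each condition has 1 array. The p-values rest mostly on a spread borrowed from all genes. From the gene itself they take only how far the gap between TNF and BSA changed from 6 to 12 h plus array scatter, which may be technical. All values are from 1 cell line, and the 2 h arrays (TNF and BSA) are used only to place the later response in time.

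TNF binds TNF receptor 1 and leads the IκB kinase complex to destroy IκB proteins, which frees NF-κB to enter the nucleus and switch on chemokines, cytokines and its own inhibitors, among them IκBα and A20. A later, secondary wave follows in many cell types: IRF1 and a low output of type I interferon act through the JAK kinases, STAT proteins and IRF9, and switch on interferon-stimulated genes, which hold back viruses and help to present antigen. In salivary glands such interferon-stimulated genes and the chemokines CXCL10 and CXCL11 are known from Sjögren's disease, in which lymphocytes gather around ducts and acini.

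Promoters of 6 genes are shown because they hold the binding motifs of these 2 waves: 2 genes each from those already 2-fold higher at 2 h, those between 0.5 and 1 on the log2 scale at 2 h, and those higher from 6 h on. Each run is the 250 bases before the transcription start in RefSeq (GRCh38.p14), 5′ to 3′ on the gene's strand. Capitals mark matches, on either strand, to the κB consensus bound by NF-κB, to the core GAAANNGAA of the interferon-stimulated response element (ISRE) bound by IRF factors, or to the core TTCNNNGAA of the GAS element bound by STAT dimers. CXCL10 lies at chr4:76023498-76023747, minus strand, and has 2 κB matches and 1 ISRE match. TNFAIP3, at chr6:137867009-137867258, plus strand, has 2 κB matches side by side. RIGI, at chr9:32526197-32526446, minus strand, has 1 κB match, and IFIT3, at chr10:89327747-89327996, plus strand, has 2 ISRE matches. CXCL11, at chr4:76036071-76036320, minus strand, has 1 κB and 1 GAS match, and GBP3, at chr1:89022867-89023116, minus strand, has 1 GAS match. No match overlaps another in these 6 runs. A match describes the letters only, and the absence of a match says nothing of a factor.
CXCL10: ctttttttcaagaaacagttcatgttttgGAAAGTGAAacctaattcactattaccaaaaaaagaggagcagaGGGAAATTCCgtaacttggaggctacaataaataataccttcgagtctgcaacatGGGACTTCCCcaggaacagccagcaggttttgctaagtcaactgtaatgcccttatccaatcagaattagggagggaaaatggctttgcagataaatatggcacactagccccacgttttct
TNFAIP3: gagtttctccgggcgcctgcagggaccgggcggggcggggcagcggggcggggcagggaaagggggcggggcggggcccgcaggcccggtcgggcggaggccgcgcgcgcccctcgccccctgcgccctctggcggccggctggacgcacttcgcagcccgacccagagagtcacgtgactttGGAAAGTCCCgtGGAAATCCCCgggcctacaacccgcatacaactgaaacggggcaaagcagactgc
RIGI: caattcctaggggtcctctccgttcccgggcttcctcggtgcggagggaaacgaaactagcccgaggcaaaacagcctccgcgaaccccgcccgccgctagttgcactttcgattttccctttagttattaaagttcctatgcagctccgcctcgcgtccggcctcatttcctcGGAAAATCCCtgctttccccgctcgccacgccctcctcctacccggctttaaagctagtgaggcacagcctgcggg
IFIT3: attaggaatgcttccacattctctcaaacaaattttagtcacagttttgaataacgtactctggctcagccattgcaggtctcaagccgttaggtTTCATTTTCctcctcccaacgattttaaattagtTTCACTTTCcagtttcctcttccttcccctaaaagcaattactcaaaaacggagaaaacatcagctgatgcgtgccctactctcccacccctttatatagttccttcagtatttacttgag
CXCL11: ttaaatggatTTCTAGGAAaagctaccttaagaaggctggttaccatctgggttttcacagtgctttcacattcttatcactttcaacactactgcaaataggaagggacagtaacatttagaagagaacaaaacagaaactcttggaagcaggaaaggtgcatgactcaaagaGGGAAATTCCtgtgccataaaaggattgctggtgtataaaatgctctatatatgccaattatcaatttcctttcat
GBP3: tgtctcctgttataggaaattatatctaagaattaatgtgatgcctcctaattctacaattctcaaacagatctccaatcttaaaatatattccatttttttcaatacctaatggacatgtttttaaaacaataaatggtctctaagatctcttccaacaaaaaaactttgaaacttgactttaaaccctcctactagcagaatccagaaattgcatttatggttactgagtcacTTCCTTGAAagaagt

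The deposited values are log2 expression after RMA, and every difference below is TNF minus BSA at the same time on the log2 scale, where 1 is 2-fold. On the 4 arrays the gap between the 3′ and 5′ probe sets of GAPDH was 0.24 to 0.37 and that of ACTB 2.59 to 3.09, and the TNF array at 24 h, not used in any test here, had gaps of 6.28 and 6.88. The label "acinar" was checked against markers. Of 12 acinar markers measured, 11 were under the median of all genes (5.11) in mean level on these arrays, among them the water channel AQP5 at 4.01, and only the chloride cotransporter SLC12A2, at 7.34, was over the upper quartile (7.23). The epithelial keratins KRT8 and KRT18 read 8.71 and 10.14, while EPCAM, CDH1 and KRT19 read 2.91, 3.43 and 3.90. Of 7 fibroblast markers COL3A1 (9.12) and LUM (7.86) were over the upper quartile and COL1A1 (3.85) and COL1A2 (3.48) were low. Leukocyte markers (8 measured) and endothelial markers (5 measured) had 0 members over the upper quartile. Acinar, leukocyte and endothelial lists had 0 members called with TNF. In the fibroblast list LUM was called higher by 0.47 and PDGFRB lower by 0.76, and in the duct list the protease inhibitor SLPI was called higher by 2.21. Whether cells of another type took part in the response was not tested. In bulk RNA, more cells of a type and more RNA per cell cannot be told apart.

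Which genes did TNF change at 6 and 12 h alike? With limma (time as a block, adjusted p under 0.05 over 18239 genes) 508 genes rose, 2.79% of those tested, and 586 fell, 3.21%. The rises were the larger ones: their median was 0.93 and that of the falls -0.66. All 508 were higher at both times and all 586 lower at both times. This was set by the test, in which a gene with opposite signs at 6 and 12 h gets an error too large to pass. Of the rises 231 had a mean difference of at least 1, and of the falls 66 had one of at least that size in the other direction. A stricter description, at least 2-fold at both times, held for 165 genes that were higher (0.905% of all genes) and 32 that were lower (0.175%). All of these were among the called genes, which the size of their differences makes nearly certain in this test. Across genes the 6 h and 12 h differences correlated with r = 0.70, as a description of 2 pairs of arrays that share no array. The test has 1 residual degree of freedom, so its error rests mostly on the spread borrowed from all genes. That degree of freedom holds the change of the difference from 6 to 12 h plus array noise. The 2 pairs are thus not replicates of 1 condition, and a gene whose difference grew or shrank gets a larger error. On simulated arrays the share of false calls among the calls was above the nominal one, so the adjusted p may be too small and calls near the threshold are uncertain. Without the time block 54 genes were higher and 8 lower. When the probe sets of a gene were averaged 369 were higher and 261 lower, and quantile normalisation again gave 543 and 465.

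**Figure D1:**
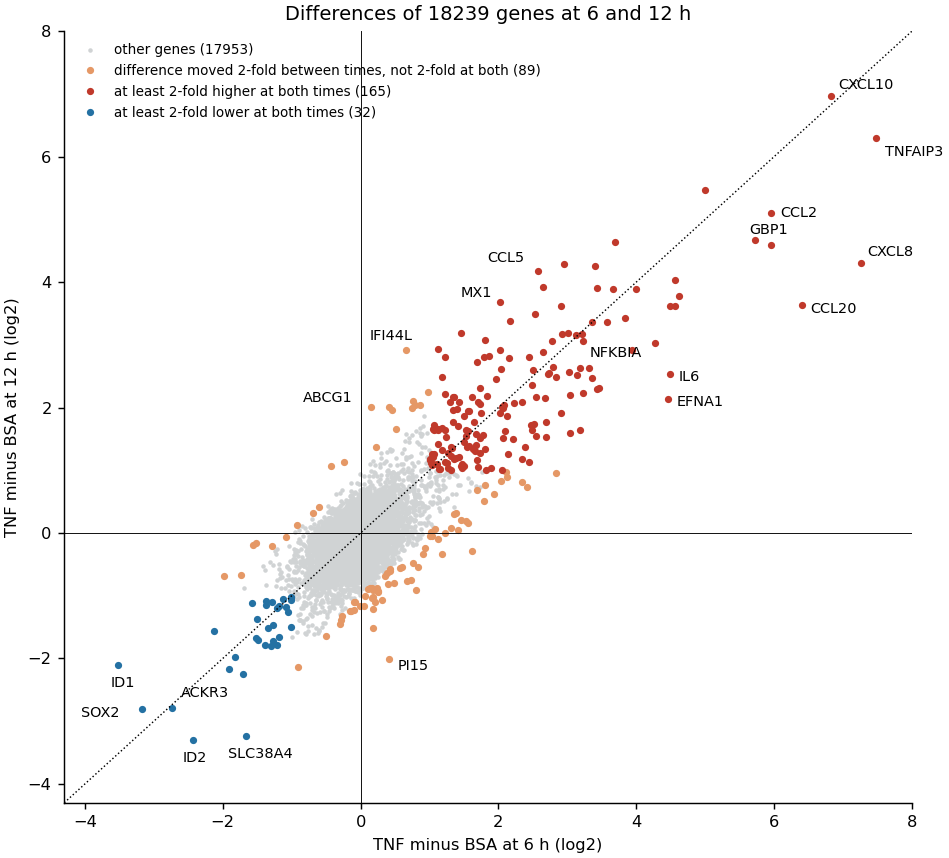
Difference TNF minus BSA (log2) of 18239 genes at 6 h (x axis) and 12 h (y axis), 1 point a gene, with the dotted line marking equal differences. The 165 genes at least 2-fold higher at both times (red) reach about 7 on both axes, and the 32 lower genes (blue) stay above -4, while CXCL8, CCL20 and IL6 lie under the line and MX1, CCL5 and IFI44L over it.

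The inhibitors of NF-κB stayed high at both times. TNFAIP3, which encodes the ubiquitin-editing inhibitor A20, read 10.80 and 9.56 on the TNF arrays at 6 and 12 h, against 3.32 and 3.26 on the BSA arrays. NFKBIA, which encodes IκBα, read 11.32 and 10.79 with TNF, against 8.20 and 7.64 with BSA. Both genes were far above BSA on each TNF array, with no overlap. TNFAIP3 rose by 6.89 ± 0.23 (SE, 2 pairs, limma adjusted p = 1.66e-06) and NFKBIA by 3.13 ± 0.11 (adjusted p = 2e-06). The 2 probe sets of TNFAIP3 averaged 5.57 and the 3 of NFKBIA 3.21. Of 12 measured members of the list of NF-κB inhibitors and feedback genes, 9 rose and 0 fell, with a median mean difference of 2.52, where the median over all genes was -0.01. TNFAIP2 rose by 3.43 ± 0.21, NFKBIE, another IκB, by 2.72 ± 0.11, NFKBIZ, a nuclear IκB, by 2.41 ± 0.29, and the deubiquitinase CYLD by 1.32 ± 0.12. TNIP1, the A20 partner, and the adaptor TRAF1 came late. TNIP1 differed by 0.54 at 2 h and by 3.22 at 6 h and 3.17 at 12 h, and TRAF1 by 0.52 at 2 h, 2.45 at 6 h and 2.81 at 12 h. The 8 probe sets of TNIP1 averaged 2.32 over both later times. BCL3, a nuclear IκB, rose by 2.22 ± 0.12 on its brightest probe set, and 2 of its 4 probe sets were higher at both times. Among 5 NF-κB subunits, RELB rose by 2.77 ± 0.12, NFKB1 by 2.23 ± 0.19 and NFKB2 by 0.51 ± 0.11.

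**Figure D2:**
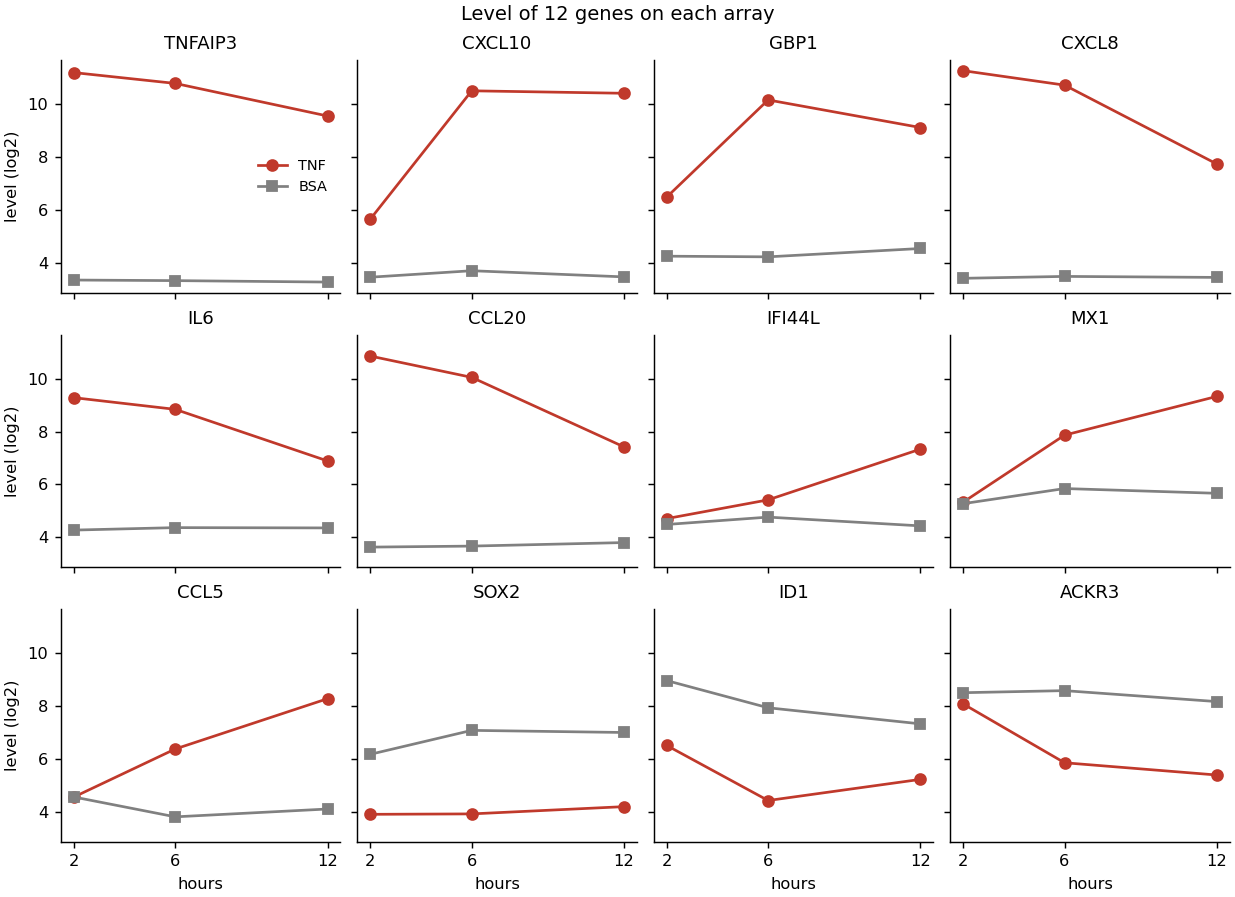
Level (log2, y axis) of 12 genes on the TNF arrays (red circles) and BSA arrays (grey squares) at 2, 6 and 12 h (x axis), 1 array a point and no error bars. TNFAIP3, CXCL8, IL6 and CCL20 are highest with TNF at 2 h and decline, CXCL10 and GBP1 climb to 6 h, IFI44L, MX1 and CCL5 are higher at 12 h than at 6 h, and SOX2, ID1 and ACKR3 lie under BSA at 6 and 12 h.

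Chemokines were among the largest differences, and some were larger at 12 h than at 6 h while others were smaller. CXCL10, an attractant of activated T cells, read 10.52 and 10.42 with TNF at 6 and 12 h, against 3.69 and 3.46 with BSA. CXCL11, which binds the same receptor, read 6.42 and 7.44 with TNF, against 2.73 and 2.80 with BSA. Both were high on each TNF array and near the lower quartile of all genes (3.72) or under it on the BSA arrays. CXCL10 rose by 6.89 ± 0.11 (limma adjusted p = 3.63e-08) and CXCL11 by 4.17 ± 0.20 (adjusted p = 8.77e-06), while the third member of this list, CXCL9, differed by 0.08. CXCL8, the main human attractant of neutrophils, read 10.73 at 6 h and 7.74 at 12 h with TNF, against 3.48 and 3.44 with BSA. It rose by 5.78 ± 0.52, and its difference was 7.25 at 6 h and 4.30 at 12 h. Its 3 probe sets averaged 4.13. Of 6 neutrophil CXC chemokines CXCL8 and CXCL2 rose (CXCL2 by 1.58 ± 0.29, with 2.34 at 6 h and 0.82 at 12 h), and CXCL1 differed by 0.03. Where the BSA level is near background, the size of a rise is imprecise.

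In the list of 9 CC and CX3C chemokines 4 rose and 0 fell. CCL2, the attractant of monocytes, read 10.48 and 8.85 with TNF, against 4.52 and 3.75 with BSA, and rose by 5.53 ± 0.19. CCL20, which attracts cells with the receptor CCR6, read 10.06 and 7.42 with TNF, against 3.66 and 3.79 with BSA, and rose by 5.01 ± 0.49. CCL5, an attractant of T cells and monocytes, went the other way in time. It read 6.38 and 8.29 with TNF at 6 and 12 h, against 3.80 and 4.10 with BSA, and rose by 3.38 ± 0.30, with a difference of 2.57 at 6 h and 4.18 at 12 h. The membrane-bound chemokine CX3CL1 rose by 2.10 ± 0.17. The list's median was 0.15, and the other 5 members did not pass.

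Of 23 cytokines of inflammation 6 rose and 0 fell, with a list median of 0.26. IL6 read 8.85 and 6.89 with TNF at 6 and 12 h, against 4.36 and 4.35 with BSA, so both TNF arrays were higher and the later one less so. It rose by 3.51 ± 0.35 (limma adjusted p = 0.000752), and 1 of its 2 probe sets carried the rise, the mean of both being 2.13. IL32 rose by 3.67 ± 0.14, IL18, which the inflammasome matures, by 1.86 ± 0.14, the death ligand TNFSF10 (TRAIL) by 1.76 ± 0.16, IL15 by 1.28 ± 0.13 and LTB (lymphotoxin β) by 0.86 ± 0.13. TNF itself read 5.05 and 4.54 with TNF, against 4.27 and 4.34 with BSA, and did not pass (0.49 ± 0.15, adjusted p = 0.113). LIF differed by 1.45 at 6 h and 0.21 at 12 h and did not pass. IL1B differed by 0.35 and did not pass.

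The factors that read interferon signals were higher, while interferon genes themselves were near background. IRF9, the DNA-binding subunit of the complex that type I interferon activates, read 8.12 and 8.43 with TNF, against 5.19 and 5.26 with BSA. It rose by 3.05 ± 0.12 (limma adjusted p = 3.08e-06), and at 2 h it differed by -0.13. Its 4 probe sets averaged 2.04. IRF1, an early target of NF-κB, rose by 2.36 ± 0.13 and had differed by 2.61 at 2 h. Of 12 measured JAK, STAT and IRF genes 7 rose and 0 fell: beside IRF9 and IRF1 these were STAT5A (2.15 ± 0.11), IRF2 (1.58 ± 0.14), STAT3 (0.92 ± 0.14), STAT6 (0.76 ± 0.16, with 0.42 at 6 h and 1.09 at 12 h) and JAK1 (0.53 ± 0.11). Of 11 interferons and receptors the 4 receptor chains IFNGR2 (1.68 ± 0.12), IFNGR1 (1.04 ± 0.12), IFNAR1 (0.63 ± 0.11) and IFNAR2 (0.59 ± 0.13, with 0.36 at 6 h and 0.81 at 12 h) rose. The interferon genes IFNB1, IFNL1 and IFNG read between 2.96 and 3.30 on the 4 arrays, under the lower quartile of all genes. Of 8 feedback genes of this pathway USP18, an inhibitor of interferon receptor signalling, rose by 1.13 ± 0.16, the phosphatase PTPN2 rose by 0.61 ± 0.11, and SOCS2 fell by 1.03 with an SE of 0.13.

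Antiviral interferon-stimulated genes were the list with the most members called. Of 40 measured, 31 rose and 0 fell, against 2.79% of all genes. In the median member TNF exceeded BSA by 0.03 at 2 h, 0.89 at 6 h and 1.61 at 12 h. A larger difference at 12 h than at 6 h was seen in 33 of 40, and in 9687 of all 18239 genes. In the lists with 0 calls it ranged from 10 of 20 respiratory chain genes to 9 of 10 class II genes. This count alone thus does not set the antiviral list apart. Of the 40 members 19 were at least 2-fold higher at 6 h and 30 at 12 h. MX1, a GTPase that blocks influenza virus, read 7.87 and 9.34 with TNF at 6 and 12 h, against 5.84 and 5.66 with BSA, and rose by 2.85 ± 0.31. IFIH1, the sensor MDA5 of long double-stranded RNA, read 6.87 and 8.52 with TNF, against 4.34 and 5.02 with BSA. On these genes each TNF array lay above each BSA array. IFIH1 rose by 3.02 ± 0.20 (its 2 probe sets averaged 1.83), RIGI, the sensor of short RNA with a 5′ triphosphate, by 3.15 ± 0.11, and XAF1, which binds the caspase inhibitor XIAP, by 2.92 ± 0.12. CMPK2, a mitochondrial nucleotide kinase, rose by 2.77 ± 0.24 (its 3 probe sets averaged 1.08). OAS3, which makes the signal that activates RNase L, rose by 2.44 ± 0.25, and IFIT3, which helps to bind viral RNA, by 2.41 ± 0.20. IFIT3 was among the minority with a smaller difference at 12 h, 2.90 at 6 h and 1.92 at 12 h. Among the 9 members that did not pass, OAS1, IFI6 and BST2 had differences of 0.28, 0.23 and 0.20 at 6 h and of 1.10, 1.38 and 1.09 at 12 h.

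**Figure D3:**
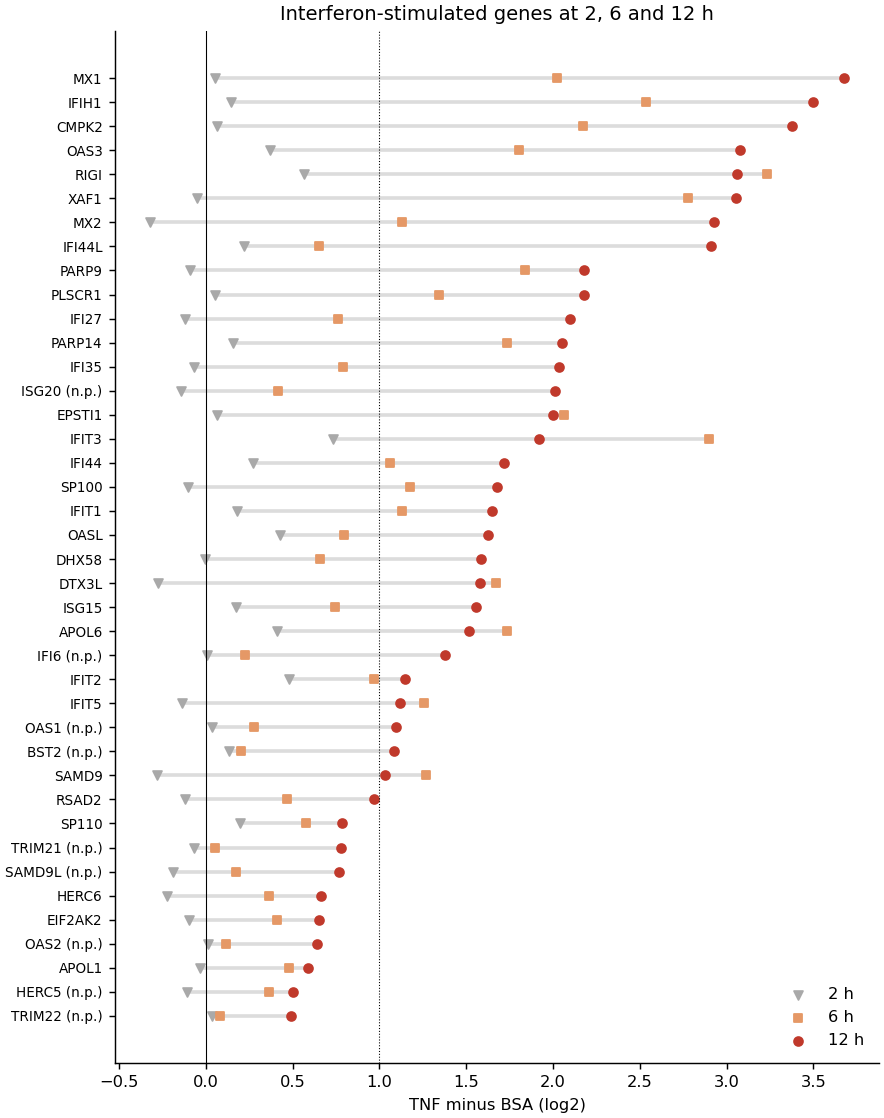
Difference TNF minus BSA (log2, x axis) of 40 antiviral interferon-stimulated genes at 2 h (grey triangles), 6 h (orange squares) and 12 h (red circles), ordered by the 12 h value, with 1 pair of arrays a point; n.p. marks the 9 genes not past the limma threshold and the dotted line marks 2-fold. Most 2 h points lie near 0, and 33 of 40 genes have their 12 h point to the right of the 6 h point. Of all 18239 genes 9687 had a larger difference at 12 h, and in the lists with 0 calls 10 of 20 to 9 of 10 members did.

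Guanylate binding proteins, GTPases that attack vacuoles of intracellular pathogens, rose as well. GBP1 read 10.17 and 9.12 with TNF, against 4.22 and 4.54 with BSA, and rose by 5.27 ± 0.26 on 5 of 5 probe sets in the same direction. GBP3 rose by 3.36 ± 0.11, GBP2 by 3.10 ± 0.11 and GBP4 by 0.94 ± 0.16 (0.61 at 6 h and 1.27 at 12 h), so 4 of 5 members rose. GBP5 differed by 0.21 at 6 h and 0.96 at 12 h and did not pass. Members of this family are alike in sequence, and probes can read more than 1 of them.

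Of 17 genes of class I antigen presentation 10 rose and 0 fell, with a median of 0.63 at 6 h and 0.76 at 12 h. A larger difference at 12 h was seen in 15 of 17, and in 9687 of all 18239 genes. The peptide transporter TAP1 read 10.31 and 10.48 with TNF, against 8.58 and 8.17 with BSA, and rose by 2.02 ± 0.15. Its partner TAP2 rose by 1.16 ± 0.13, the loading factor TAPBP by 1.65 ± 0.15, the immunoproteasome subunits PSMB8 and PSMB9 by 1.06 ± 0.18 and 0.99 ± 0.17, and the trimming peptidase ERAP1 by 0.85 ± 0.12. The heavy chains HLA-B and HLA-F rose by 1.23 ± 0.17 and 1.36 ± 0.24. The differences at 6 and 12 h were 0.64 and 1.47 for PSMB8, 0.63 and 1.35 for PSMB9, and 0.74 and 1.99 for HLA-F. HLA genes share long stretches of sequence, so each of these values may include its relatives. B2M, the common light chain, differed by 0.33 and did not pass. Of 10 genes of class II presentation 0 passed in limma, and 0.12 was their median. Even so, 9 of these 10 had a larger difference at 12 h, so the count alone does not set class I genes apart.

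Of 19 complement and acute phase genes 7 rose and 0 fell, although the list median was 0.28. C3, the central complement protein, read 5.96 and 7.34 with TNF at 6 and 12 h, against 3.01 and 3.04 with BSA, and rose by 3.62 ± 0.26. C1S, a protease of the classical complement pathway, read 4.98 and 6.72 with TNF, against 3.52 and 3.53 with BSA, and rose by 2.32 ± 0.32. Both were higher at 12 h than at 6 h with TNF and level with BSA. The acute phase proteins SAA2 and SAA1 rose by 3.47 ± 0.12 and 2.47 ± 0.19. These genes are near copies, and their probe sets may not separate them. The pentraxin PTX3 rose by 2.11 ± 0.23, complement factor B (CFB) by 1.22 ± 0.16 and the complement inhibitor CD59 by 0.70 ± 0.11.

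Adhesion molecules and TNF receptors rose in part. Of 11 adhesion genes 6 rose and 0 fell (median 0.59). ICAM1, the ligand of leukocyte integrins, read 8.78 and 8.22 with TNF, against 4.23 and 4.18 with BSA, and VCAM1 read 8.86 and 8.26 with TNF, against 4.23 and 4.49 with BSA. ICAM1 rose by 4.30 ± 0.14 and VCAM1 by 4.20 ± 0.18 (limma adjusted p = 1.66e-06 and 5.24e-06). The hyaluronan receptor CD44 rose by 2.34 ± 0.20 with all 10 probe sets higher, and CD47, ALCAM and CD58 rose by 0.59 to 1.11, with 0.70 at 6 h and 1.52 at 12 h for CD47. Of 16 TNF receptor superfamily genes 6 rose and 0 fell. TNFRSF9, the costimulatory receptor 4-1BB, read 9.03 and 9.08 with TNF, against 4.03 and 3.62 with BSA, and rose by 5.23 ± 0.14. The death receptor FAS rose by 1.75 ± 0.13, CD40 by 1.45 ± 0.23 (0.86 at 6 h and 2.04 at 12 h), TNFRSF10B (a TRAIL receptor) by 0.83 ± 0.11 and TNFRSF12A by 0.67 ± 0.13. TNFRSF1A, which encodes TNF receptor 1, rose by 0.51 ± 0.12 (adjusted p = 0.0456).

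Genes on both sides of cell death rose. Of 21 caspases and apoptosis regulators 7 rose and 0 fell. CFLAR, the inhibitor of caspase-8 known as cFLIP, read 9.67 and 9.84 with TNF, against 7.92 and 7.93 with BSA, and rose by 1.83 ± 0.11 with 9 of 9 probe sets higher. The protective MCL1 rose by 0.81 ± 0.11. The pro-apoptotic genes BID, BBC3 (PUMA) and PMAIP1 (NOXA) rose by 1.56 ± 0.12, 1.46 ± 0.19 and 0.85 ± 0.14, and the inflammatory caspases CASP1 and CASP4 by 0.81 ± 0.15 and 0.71 ± 0.12, with 0.53 at 6 h and 1.08 at 12 h for CASP1. The RNA-binding proteins that shorten the life of cytokine mRNAs were also higher, with 5 of 7 called. ZFP36L1 rose by 1.39 ± 0.12, ZFP36 (tristetraprolin) by 1.21 ± 0.19 (1.67 at 6 h and 0.75 at 12 h), ZFP36L2 by 0.98 ± 0.11, ZC3H12C by 0.83 ± 0.12 and ZC3H12A (Regnase-1) by 0.69 ± 0.13.

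Transcription factors of the immediate early class were in part still above BSA. Of 18 AP-1 and immediate early genes 5 rose and 1 fell. The AP-1 subunits FOSL2, JUN and FOSL1 rose by 1.86 ± 0.16, 1.54 ± 0.11 and 0.92 ± 0.12, IER3 by 1.88 ± 0.21 and ATF3 by 1.01 ± 0.12, and the phosphatase gene DUSP4 fell by 1.20 with an SE of 0.21, and differed by -1.73 at 6 h and -0.67 at 12 h. FOS and EGR1 differed by 0.03 and -0.29 and did not pass. Of 10 Krüppel-like factors 5 rose and 1 fell. KLF4 read 9.39 and 8.65 with TNF, against 4.91 and 5.03 with BSA, and rose by 4.05 ± 0.19. Its 2 probe sets averaged 3.08. KLF6, KLF10, KLF11 and KLF3 rose by 0.76 to 1.21, with 1.15 at 6 h and 0.36 at 12 h for KLF3, and KLF2, which is protective in endothelium, fell by 0.79 with an SE of 0.13.

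Single genes of other lists stood out. CLDN1, a claudin that seals tight junctions, read 9.64 and 9.26 with TNF, against 3.92 and 4.58 with BSA. It rose by 5.20 ± 0.21 with 4 of 4 probe sets higher (3.23 as their mean), and it was the only one of 11 tight junction genes called. TNC, the matrix glycoprotein tenascin-C, read 9.68 and 9.94 with TNF, against 5.12 and 6.33 with BSA, and rose by 4.09 ± 0.20. Its 4 probe sets averaged 3.10. SOD2, the mitochondrial superoxide dismutase, read 9.83 and 10.69 with TNF, against 6.92 and 7.08 with BSA, and rose by 3.26 ± 0.16. Its 4 probe sets averaged 2.68. PTGER4, a receptor of prostaglandin E2, rose by 3.63 ± 0.13, and GCH1, which starts the synthesis of tetrahydrobiopterin, by 1.55 ± 0.23 (2.12 at 6 h and 0.98 at 12 h). NPTX1, a neuronal pentraxin, rose by 3.95 ± 0.11 (2.15 as the mean of 2 probe sets), LCP1, an actin-bundling protein of leukocytes, by 3.83 ± 0.18 (2.32 as the mean of 2) and COXFA4L3, a mitochondrial protein, by 3.78 ± 0.12. Of 15 matrix proteases and inhibitors 4 rose, PLAU (urokinase) by 0.98 ± 0.14, SERPINE2 by 0.93 ± 0.13, PLAT by 0.61 ± 0.12 and TIMP3 by 0.51 ± 0.11. MMP9, a protease studied in salivary gland inflammation, read 3.78 and 4.25 with TNF, against 3.83 and 3.46 with BSA. It differed by -0.05 at 6 h and 0.79 at 12 h, and did not pass over both times (limma adjusted p = 0.337).

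The falls were smaller than the rises, and the largest were in SOX2, ID2, ID1 and ACKR3. ID1 and ID2 encode inhibitors of basic helix-loop-helix factors and are targets of BMP signalling. ID1 read 4.42 and 5.23 with TNF, against 7.94 and 7.33 with BSA, and ID2 read 6.11 and 4.62 with TNF, against 8.54 and 7.92 with BSA. The groups did not overlap for either gene. ID2 fell by 2.86 with an SE of 0.19, and ID1 fell by 2.81 with an SE of 0.27 and all 3 probe sets lower. Of 14 genes of BMP signalling and ID factors 4 fell and 1 rose. The others were the ligand BMP4 (fell by 0.79, SE 0.11), ID3 (fell by 0.47, SE 0.11) and BAMBI, a decoy receptor, which rose by 1.11 ± 0.12. GDF6, another BMP family ligand, fell by 1.84 on its brightest probe set, with an SE of 0.15, and its mean over 2 probe sets was -0.90.

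SOX2, a transcription factor of progenitor cells, read 3.92 and 4.19 with TNF, against 7.08 and 7.00 with BSA, and fell by 2.99 with an SE of 0.13. That value is from the brightest of 3 probe sets, and the mean of the 3 was -1.03. ACKR3, a scavenger receptor for CXCL11 and CXCL12, read 5.86 and 5.39 with TNF, against 8.59 and 8.18 with BSA. It fell by 2.76 with an SE of 0.11 and all 4 probe sets lower (limma adjusted p = 3.79e-06). Their mean was -1.96. SLC38A4, an amino acid transporter, read 5.82 and 4.84 with TNF, against 7.48 and 8.08 with BSA, and fell by 2.45 with an SE of 0.29. Its mean over 3 probe sets was -0.92. PPARGC1A, the coactivator of mitochondrial biogenesis, fell by 2.04 with an SE of 0.12, and its mean over 4 probe sets was -1.26.

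Further transcription and chromatin factors were among the 15 largest falls. RFX7 fell by 1.97 (SE 0.14), ETV1, an ETS factor, by 1.90 (SE 0.11), DACH1 by 1.60 (SE 0.12) and the 5-methylcytosine oxidase TET1 by 1.55 (SE 0.14). ETV1 was lower on 8 of 8 probe sets, but their mean was -0.58. The 3 probe sets of RFX7 averaged -1.44. The growth hormone receptor GHR fell by 1.53 (SE 0.24), with -0.91 at 6 h and -2.14 at 12 h, and as the mean of its 2 probe sets it was -0.92 and did not pass (adjusted p = 0.0567). JAKMIP2 fell by 1.60 (SE 0.11), C5orf23 by 1.59 (SE 0.13) and the ubiquitin ligase TRIM2 by 1.50 (SE 0.15).

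Which differences grew or shrank between 6 and 12 h? This change has no residual degree of freedom, so it is a description of 4 arrays with no test. The difference increased by at least 1 in 35 genes (0.192% of all) and decreased by at least 1 in 86 (0.472%). Of the 35, 32 were at least 2-fold apart at 1 time or more, and 9 were on the list of antiviral interferon-stimulated genes. Of the 86, 64 were at least 2-fold apart and 0 were on that list. The list holds 40 of all 18239 genes, so 0 of 86 is near its share of all genes. In 21 of the 35 and 35 of the 86 the TNF arm alone moved by 2-fold, and in 2 and 10 the BSA arm alone did. BSA arrays also differed between the times, with 142 genes at least 2-fold higher and 21 lower at 12 h than at 6 h, against 68 higher and 85 lower on the TNF arrays. At least 2-fold higher at 6 h were 252 genes and at 12 h 235, and at least 2-fold lower were 70 at 6 h and 153 at 12 h. At 6 h and not at 12 h there were 87 higher and 38 lower, and at 12 h and not at 6 h there were 70 higher and 121 lower. The count of genes 2-fold apart in opposite directions at 6 and 12 h was 0.

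Among genes at least 2-fold apart at 1 time or more, the 10 largest increases included 4 genes of the antiviral list, of which IFI44L had the largest. It read 5.41 and 7.34 with TNF at 6 and 12 h, against 4.76 and 4.43 with BSA, so its difference was 0.65 at 6 h and 2.91 at 12 h. MX2, a GTPase that blocks retroviruses, differed by 1.13 and 2.93, C1S by 1.46 and 3.19, MX1 by 2.03 and 3.68, and CCL5 by 2.57 and 4.18. IFITM1, which blocks viral entry, differed by 1.22 at 6 h and 2.81 at 12 h, and the exonuclease ISG20 by 0.42 and 2.01. These 7 genes were each higher at 12 h than at 6 h on the TNF arrays, and moved less on the BSA arrays. ABCG1, a cholesterol exporter and the second largest of these increases, differed by 0.16 at 6 h and 2.00 at 12 h. RASSF2, a RAS-binding protein, differed by 0.46 and 1.96. C5AR1, the receptor of complement fragment C5a, differed by -0.43 and 1.07, and its BSA level also moved, with 5.68 at 6 h and 4.86 at 12 h. In the test over both times MX2, C1S, MX1, CCL5 and IFITM1 were called, as were IFI44L (adjusted p = 0.0382) and RASSF2 (0.0419), while ISG20 (0.0507), ABCG1 (0.122) and C5AR1 (0.654) did not pass. As the mean of probe sets MX2 (1.12), IFI44L (1.60) and RASSF2 (0.70) did not pass, with adjusted p = 0.0793, 0.101 and 0.138.

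The 10 largest decreases among genes at least 2-fold apart at 1 time or more were of several kinds. Between 6 and 12 h the difference changed by -2.95 for CXCL8, -2.77 for CCL20 and -1.95 for IL6, with BSA levels that moved by at most 0.13. EFNA1, a ligand of ephrin receptors, read 10.38 and 7.92 with TNF, against 5.92 and 5.79 with BSA, so its difference was 4.46 at 6 h and 2.14 at 12 h. USP43, a deubiquitinase, differed by 1.62 and -0.29, and the adhesion receptor ADGRF5 by 2.83 and 0.96. ARID5B, a chromatin factor, differed by 2.42 at 6 h and 0.73 at 12 h. A second kind was near BSA at 6 h and under it at 12 h. PI15, a peptidase inhibitor, read 7.85 and 5.80 with TNF, against 7.44 and 7.81 with BSA, and the cystine transporter SLC7A11 read 8.01 and 5.68 with TNF, against 7.83 and 7.20 with BSA. In limma over both times PI15, USP43 and SLC7A11 did not pass (adjusted p = 0.394, 0.375 and 0.313). ADGRF5 and ARID5B passed, and did not as the mean of their probe sets (0.81 and 1.07, adjusted p = 0.0755 and 0.0846).

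How much of the response was new since 2 h? Of the 165 genes at least 2-fold higher at both later times, 57 were already 2-fold higher at 2 h, 26 differed by 0.5 to 1 and 82 were higher from 6 h on. Of the 32 lower genes the counts were 4, 6 and 22. The 57 early genes had medians of 2.19, 3.12 and 2.53 at 2, 6 and 12 h, and in 47 of 57 the difference was smaller at 12 h than at 6 h. The 82 later genes had medians of 0.11, 1.54 and 1.75, and in 52 of 82 it was larger at 12 h, which held for 9687 of all 18239 genes. Antiviral interferon-stimulated genes made up 0 of the 57, 2 of the 26 and 17 of the 82. They were 40 of all 18239 genes, so 0 of the 57 is near their share of all genes.

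A limma fit on 6 arrays tested whether the mean 6 and 12 h difference departed from the 2 h difference. By adjusted p under 0.05 it was higher in 68 genes (0.373%) and lower in 17 (0.0932%). CXCL10 was 2.20 at 2 h and gained 4.70 (adjusted p = 8.79e-05), CXCL11 gained 3.94 (0.00332) and C3 3.67 (0.0159). CCL5 read 6.38 and 8.29 with TNF at the later times and had differed by 0.00 at 2 h, a gain of 3.38 (0.0367). SAA2, IRF9, GBP3, XAF1 and IFIH1, all within 0.25 of BSA at 2 h, gained 3.38, 3.18, 3.12, 2.97 and 2.87. LCP1 gained 3.21, GBP1 3.03, PI3 (the protease inhibitor elafin) 2.80, CMPK2 2.71, SOD2 2.66 and TNIP1 2.65. Of the 68 genes 11 were on the list of 40 antiviral interferon-stimulated genes. Averaging probe sets left 22 genes higher and 3 lower.

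Of the 17 genes with a lower difference, some had been high at 2 h and others fell under BSA later. BAMBI differed by 2.91 at 2 h, 1.26 at 6 h and 0.95 at 12 h, PLAU by 2.56, 1.22 and 0.73, and CXCL3 by 1.85, 0.42 and 0.09. NR4A3, an orphan nuclear receptor of the immediate early class, differed by 1.38, 0.18 and 0.00, PHLDA1 by 1.01, -0.37 and -0.26, and TENT5B by 1.03, -0.24 and -0.41. BAMBI and PLAU were thus still above BSA at 6 h, while the other 4 were within 0.5 of BSA at both later times. ACKR3 differed by -0.42, -2.74 and -2.78 at the 3 times, RFX7 by 0.01, -1.70 and -2.24, and KBTBD7, a ubiquitin ligase adaptor, by 0.12, -1.35 and -1.52. These were near BSA at 2 h and under it at both later times.

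The promoters of the time classes held the motifs in different shares, given as a description with no test. Of all genes measured 14484 matched a RefSeq promoter, and 11.1% of these held a κB match, 5.94% an ISRE match and 6.14% a GAS match. Of the 57 early genes 46 had a promoter, 18 of them (39.1%) with κB and 5 (10.9%) with ISRE. Of the 82 later genes 65 had one, 13 (20.0%) with κB, 15 (23.1%) with ISRE and 9 (13.8%) with GAS. Among 23 promoters of the 35 genes whose difference grew after 6 h, 9 (39.1%) held ISRE and 2 (8.70%) κB. Of the 22 promoters of genes between 0.5 and 1 at 2 h, 8 (36.4%) held κB and 2 (9.09%) ISRE. Single genes depart from these shares: of the promoters printed above, early CXCL10 holds an ISRE match, and CXCL11 and GBP3, higher from 6 h on, hold 0. Of the 26 promoters of lower genes 3 held κB and 4 ISRE.

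**Figure D4:**
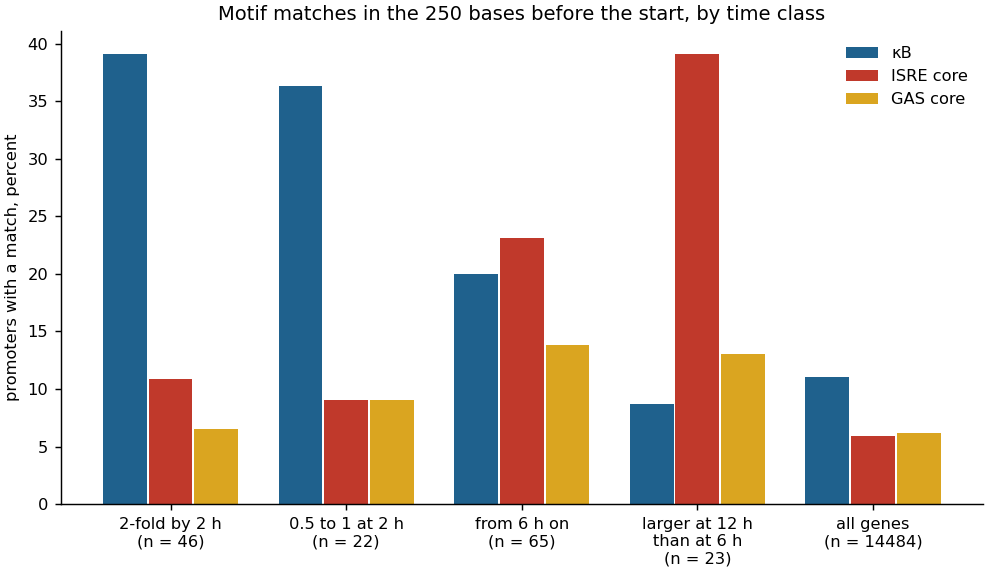
Share of promoters (percent, y axis) with a match to the κB, ISRE or GAS motif in the 250 bases before the start, for genes at least 2-fold higher at both times by their difference at 2 h, for genes whose difference grew after 6 h, and for all genes measured. The κB bar is 39.1% in the earliest class and 11.1% in all genes, and the ISRE bar is 39.1% in the genes that grew after 6 h and 5.94% in all genes.

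Several lists had few or no calls in limma at 6 and 12 h. Over all genes 2.79% were called higher and 3.21% lower. In lists this short, 0 or 1 call is near that share and does not set a list apart. Of 22 proliferation genes 0 passed (median -0.23), of 20 respiratory chain genes 0 (median -0.14), of 9 epithelial keratins 0 (median 0.05) and of 11 Notch genes 0 (median 0.14). Of 15 saliva secretion genes 1 rose, ITPR2, a calcium channel of the endoplasmic reticulum (0.69 ± 0.15, with 0.39 at 6 h and 0.98 at 12 h). AQP5 read 4.09 and 4.03 with TNF, against 4.02 and 3.88 with BSA, under the median of all genes, and did not pass (adjusted p = 0.688). Of 15 WNT genes WNT5A rose by 0.88 ± 0.12, and the receptor FZD2 and the WNT inhibitor ZNRF3 fell by 0.97 and 0.60, with -1.41 at 6 h and -0.53 at 12 h for FZD2. Of 15 genes of glycolysis and hypoxia the peptide hormone ADM rose by 0.64 ± 0.11 and the growth factor VEGFA fell by 0.54, with 5 of its 10 probe sets lower at both times. Of 11 cholesterol synthesis genes STARD4 rose by 0.95 ± 0.14, of 11 clock genes BHLHE40 by 1.09 ± 0.12, and of 12 stress response genes XBP1, a factor of the unfolded protein response, by 0.70 ± 0.11. Of 9 SOX genes SOX2 alone was called.

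**Figure D5:**
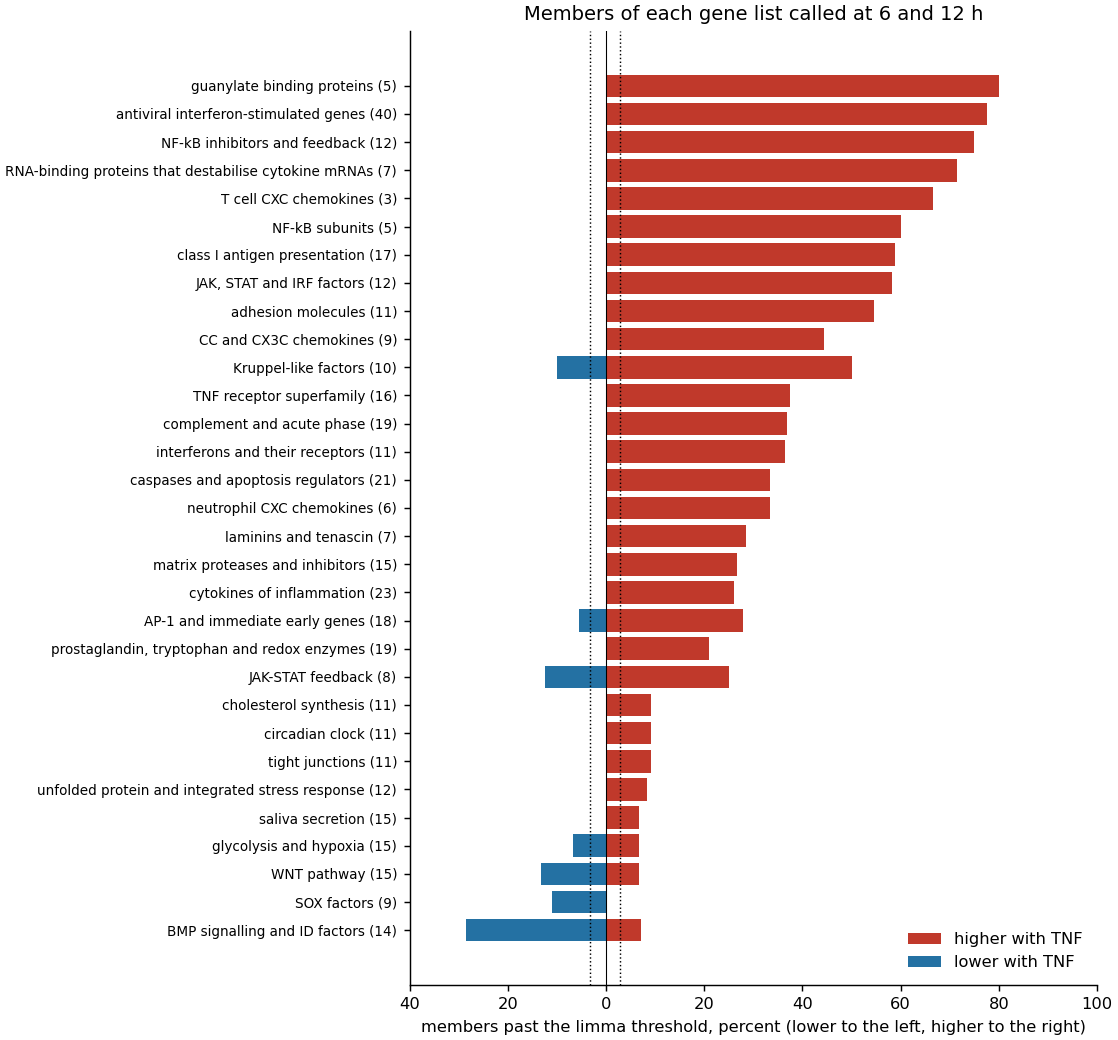
Percent of the measured members of each gene list (number in brackets) called higher with TNF (red, to the right) or lower (blue, to the left) at 6 and 12 h by limma, for the lists with a call. Dotted lines mark the share of all genes called, 2.79% higher and 3.21% lower, and the bars are longest for guanylate binding proteins (4 of 5) and antiviral interferon-stimulated genes (31 of 40).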

How the data were processed

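Total RNA was extracted with TRIzol and labelled with a 3′ IVT kit, per the labels' protocols. The authors deposited log2 values, made with RMA per the submitters' processing notes; its version is not given in the sources used here. Of 49386 probe sets, 45253 had 1 gene symbol in the platform annotation, and 1327 with several, 2713 with none and 93 controls were left out. Each gene took its probe set of highest mean level on the 8 arrays, which gave 18239 genes (11822 had more than 1). limma 3.58.1 in R 4.3.3 (lmFit, eBayes, two-sided, Benjamini-Hochberg over all genes) fitted TNF with time as a block, since each TNF array was paired with the BSA array of its time by the titles. This left 1 residual degree of freedom and 7.40 prior degrees of freedom. A fit on 6 arrays tested the later differences against 2 h. The fits were tested on simulated data with the same change at 6 and 12 h. There the share of false calls among the calls was above the nominal one in each fit.

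Named genes were 11 that are always named, the 15 largest rises and falls of each test, the 12 largest shared differences, the 10 largest changes between 6 and 12 h each way, and up to 8 members of a list with its regulators. The members and lists were chosen with earlier results of these data known. Alternatives were the mean of probe sets, quantile normalisation again, a filter on dim genes, a trend prior, no block and each time alone. Arrays have no read depth, and precision is limited by how many there were.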

Additional observations from a re-analysis of the deposited data

Results flagged for a closer look

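The response at 6 and 12 h was tested against that at 2 h with limma on 6 arrays, and the genes that passed are looked at again here because the difference between the times was itself tested. The gain was positive in 68 genes and negative in 17. On the log2 scale it was 4.70 for CXCL10, 3.94 for CXCL11, 3.67 for C3, 3.38 for CCL5, 3.38 for SAA2, 3.21 for LCP1, 3.18 for IRF9, 3.12 for GBP3, 3.03 for GBP1, 2.97 for XAF1, 2.87 for IFIH1, 2.80 for PI3, 2.71 for CMPK2, 2.66 for SOD2 and 2.65 for TNIP1. It was -2.34 for ACKR3, -1.98 for RFX7, -1.80 for BAMBI, -1.59 for CXCL3, -1.58 for PLAU, -1.56 for DACH1, -1.55 for KBTBD7, -1.52 for PPARGC1A, -1.46 for ETV1, -1.44 for JAKMIP2, -1.36 for TENT5B, -1.32 for PHLDA1, -1.29 for NR4A3, -1.29 for SPEN and -1.22 for DNAJB4. The test has 1 residual degree of freedom, and the 2 h difference is from 1 pair of arrays.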

How the results depend on the processing

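The pairing by time mattered most: with no replicate block 54 genes were higher and 8 lower, where the block gave 508 and 586. A trend prior gave 821 higher (857 lower), and 210 higher and 98 lower against 2 h, where 68 and 17 were counted. Leaving out genes under the lower quartile in level, which leaves fewer genes to adjust over, gave 110 and 35 against 2 h. Averaging a gene's probe sets gave other counts: 369 genes were higher and 261 lower at 6 and 12 h, and 22 higher and 3 lower against 2 h. At least 2-fold at both times were 119 higher and 20 lower (165 and 32 by the brightest). The difference increased between 6 and 12 h in 22 genes and decreased in 37 (35 and 86 by the brightest). Quantile normalisation again gave 543 genes higher and 465 lower at 6 and 12 h. Each time alone, an alternative chosen after seeing the data, gave 235 to 252 genes at least 2-fold higher and 70 to 153 lower. The cause of these moves was not tested. All 72 named genes kept their direction under the mean of probe sets and under quantile normalisation again, and 7 of the 58 called ones lost the call under the mean of probe sets: GHR, DNAJB4, IFI44L, MX2, RASSF2, ADGRF5 and ARID5B. The 12 h change against 6 h has no test, and 1 array a condition limits every value.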

Other observations

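Of the 165 genes at least 2-fold higher at 6 and 12 h, 109 were also at least 2-fold higher at 24 h, and of the 32 lower genes 4 were at least 2-fold lower. The share of all genes 2-fold apart at 24 h is not given here, so these counts cannot be read as persistence of the response. The 24 h TNF array is the one with 3′ to 5′ gaps of 6.28 for GAPDH and 6.88 for ACTB, against 0.21 and 3.47 on the 24 h BSA array, and the part of RNA quality in the 24 h values was not tested.

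Of the 165 higher genes 117 have more than 1 probe set, and in 103 of them every probe set was higher at both times. Of the 32 lower genes 24 have more than 1, and in 16 every probe set was lower at both times.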
